A study of Mus musculus with 15 samples.

Results

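The heat shock proteins and their DnaJ cochaperones were followed through 15 RNA-seq libraries of mouse brain. Members were the genes whose symbols begin with Hspa, Hspb, Hspd, Hspe, Hsph, Hsp90, Dnaja, Dnajb or Dnajc and that had at least 10 counts in at least 3 libraries. Of 27179 gene IDs in the table, 73 had such a symbol once 1 pseudogene and 1 further gene, not analysed here, were left out, and 66 of these passed the count rule. The 7 under it were Dnajb13, Dnajb7, Dnajb8, Dnajc22, Dnajc5b, Dnajc5g and Hspb9, and they were not analysed further. The 66 were 14 genes of the HSP70 and HSP110 families, 3 of the HSP90 family, the 2 chaperonin genes Hspd1 and Hspe1, 5 small heat shock proteins, 4 Dnaja, 10 Dnajb and 25 Dnajc genes, and 3 genes that match by prefix alone. The last are Hspbp1 and Hspbap1, which are named as binding partners of heat shock proteins, and Hspb11, a protein of ciliary transport. Of the 66 members, 66 also passed the filter on low counts used in the tests.

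The 7 TG libraries came from homozygous PLP-α-synuclein mice, 4 female and 3 male, in which the PLP promoter drives human α-synuclein. The PLP gene is one of myelinating glia, so the transgene is not driven in all brain cells. The 8 WT libraries, 4 female and 4 male, came from C57Bl/6 mice without the transgene, matched for age and sex. All mice were 12 months old, and RNA was taken from frozen brain hemispheres. The labels do not say that each library was a different animal, and p-values therefore measure spread among libraries, which may be technical. In the sample titles, all libraries of the same genotype and sex share a leading number, whose meaning is not given. Whatever goes with that number cannot be told apart from genotype and sex. The table counts mouse genes, and the human transgene was not analysed here.

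Chaperones of these families bind unfolded stretches of other proteins and keep them from clumping. DnaJ proteins deliver clients to HSP70 and start its ATP cycle, HSP110 proteins release the nucleotide again, and HSP90 takes over clients that are close to their final shape. Small heat shock proteins hold unfolded proteins without using ATP. HSF1 switches on the stress-inducible members through a DNA element made of alternating GAA and TTC units, while other members are made all the time in a given organelle or cell type. In brain, the synaptic vesicle cochaperone Dnajc5 and the clathrin-uncoating cochaperone Dnajc6 serve nerve terminals, and several DnaJ proteins are known to bind α-synuclein or to slow its aggregation.

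Depth lay between 15170772 and 35850998 counts per library (median 17635366), and members held between 0.939% and 1.34% of the counts of a library. Although all samples are labelled as hemisphere, libraries differed in region markers, and 4 classes were formed from these markers alone. In the 4 libraries called hindbrain-marker (TG female 1 and 4, WT female 3 and WT male 3) the 10 hindbrain markers, mostly Hox genes, summed to between 463.1 and 564.7 CPM, which are counts relative to library sizes scaled by TMM. The same sum was between 0.247 and 0.547 CPM in 3 cortex-marker libraries (TG male 4, WT female 2 and WT male 4) and 26.7 CPM in the 1 cerebellum-marker library (TG female 3). It lay between 0.549 and 1.37 CPM in 7 olfactory-marker libraries (TG female 2, TG male 1 and 3, WT female 1 and 4, WT male 1 and 2). Olfactory markers summed to 438.2 to 1177.0 CPM in these 7, lowest in WT male 1, and to 8.89 to 82.0 CPM elsewhere. Cerebellum markers summed to 5660.0 CPM in TG female 3 and to at most 51.2 CPM elsewhere. Without the olfactory list, WT male 1 formed a class alone, and the other olfactory-marker libraries joined the cortex-marker ones. All 10 neuron markers were detected in each class. Some libraries also carried markers of a further region. Hypothalamus markers summed to 48.0 CPM in TG female 4 and 103.7 CPM in WT male 1, against at most 6.59 CPM in the other libraries, and striatal markers to 1206.1 CPM in TG female 2 and 1178.1 CPM in WT male 1, against at most 649.5 CPM. Both hindbrain-marker TG libraries are female, and the cerebellum-marker class has no WT library. The tissue taken is not given by the labels beyond the hemisphere, so a class is a description of RNA and not a dissected region.

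The members spanned a wide range of abundance. Per kilobase of exon, Hsp90ab1, the constitutive cytosolic HSP90, averaged 614.2 CPM per kb over 15 libraries and Hspa8, the constitutive cytosolic HSP70, averaged 604.2 CPM per kb. The ranges of these levels overlapped, 489.7 to 774.7 CPM per kb for Hsp90ab1 and 468.2 to 873.9 CPM per kb for Hspa8. Hsp90aa1, the inducible HSP90, came next in level at 316.3 CPM per kb, and its highest library, 410.8 CPM per kb, stayed below the lowest library of either. A clear step led down to Hspa5, the HSP70 of the endoplasmic reticulum also called BiP, at 84.5 CPM per kb. The synaptic Dnajc5 stood at 67.2 CPM per kb and Dnajc6 at 51.9 CPM per kb, the highest DnaJ levels beside Dnajc27 at 55.1 CPM per kb. The inducible HSP70 genes Hspa1a and Hspa1b averaged 11.1 and 10.3 CPM per kb. Any reads left out for matching both genes would be missing from these levels, and how such reads were handled is not given. Hspb7 and Hspb11 had the lowest levels, 0.251 and 0.233 CPM per kb. Libraries differed little for most of these genes. The highest library was 1.11 times the lowest for Dnajc7 and 1.28 times for Dnajc5, against 5.98 times for Hspb8, 5.45 times for Dnajb5 and 26.2 times for Hspb3, which had few counts.

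**Figure D1:**
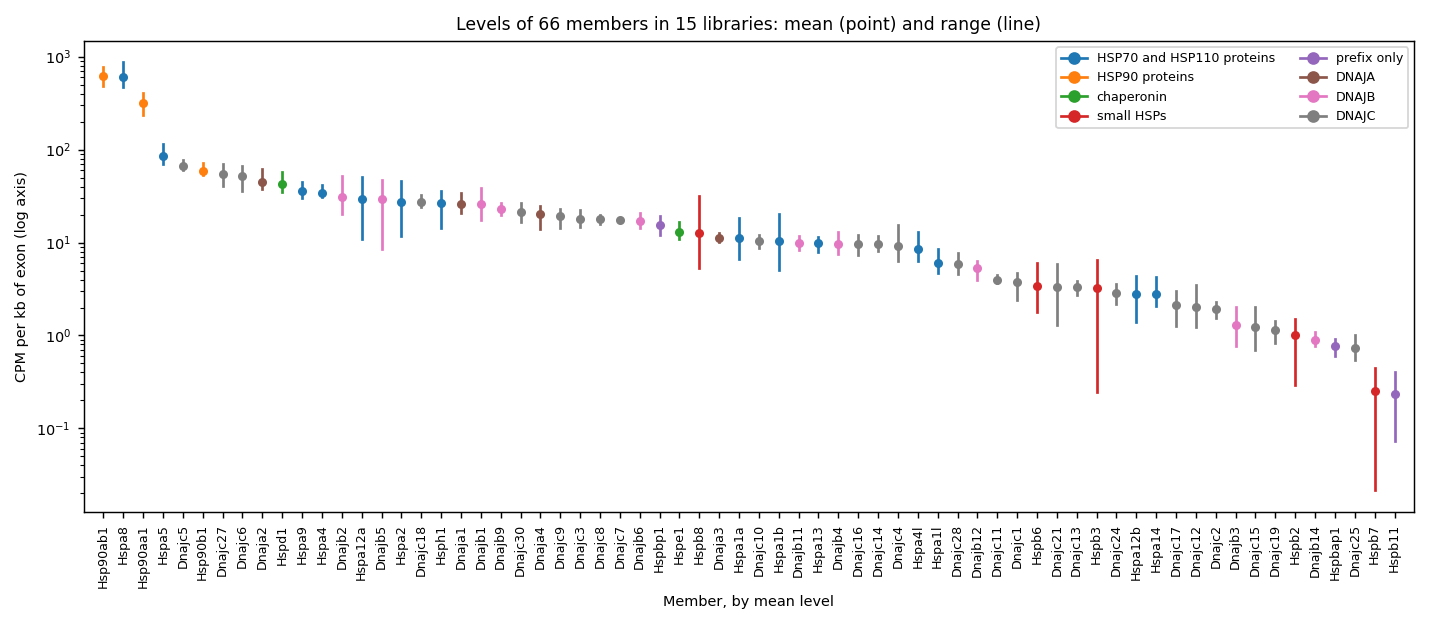
CPM per kb of exon on a log axis for the 66 members in order of their mean, coloured by family; the point is the mean of 15 libraries and the line runs from the lowest to the highest library. Hsp90ab1, Hspa8 and Hsp90aa1 lead at 614.2, 604.2 and 316.3 CPM per kb.

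Most of the spread within a member went with the library class. The class accounted for a median of 75.3% of the variance of log2 CPM over the 66 members, against 78.9% over all 17151 tested genes, so members followed the class about as closely as other genes. Genotype accounted for a median of 1.67% of that variance in members and 2.40% in all genes. No test was made between classes, since they were formed from the same libraries. A gene was counted as separated between 2 classes where the CPM ranges did not overlap and the mean log2 CPM differed by at least 1.5-fold.

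**Figure D2:**
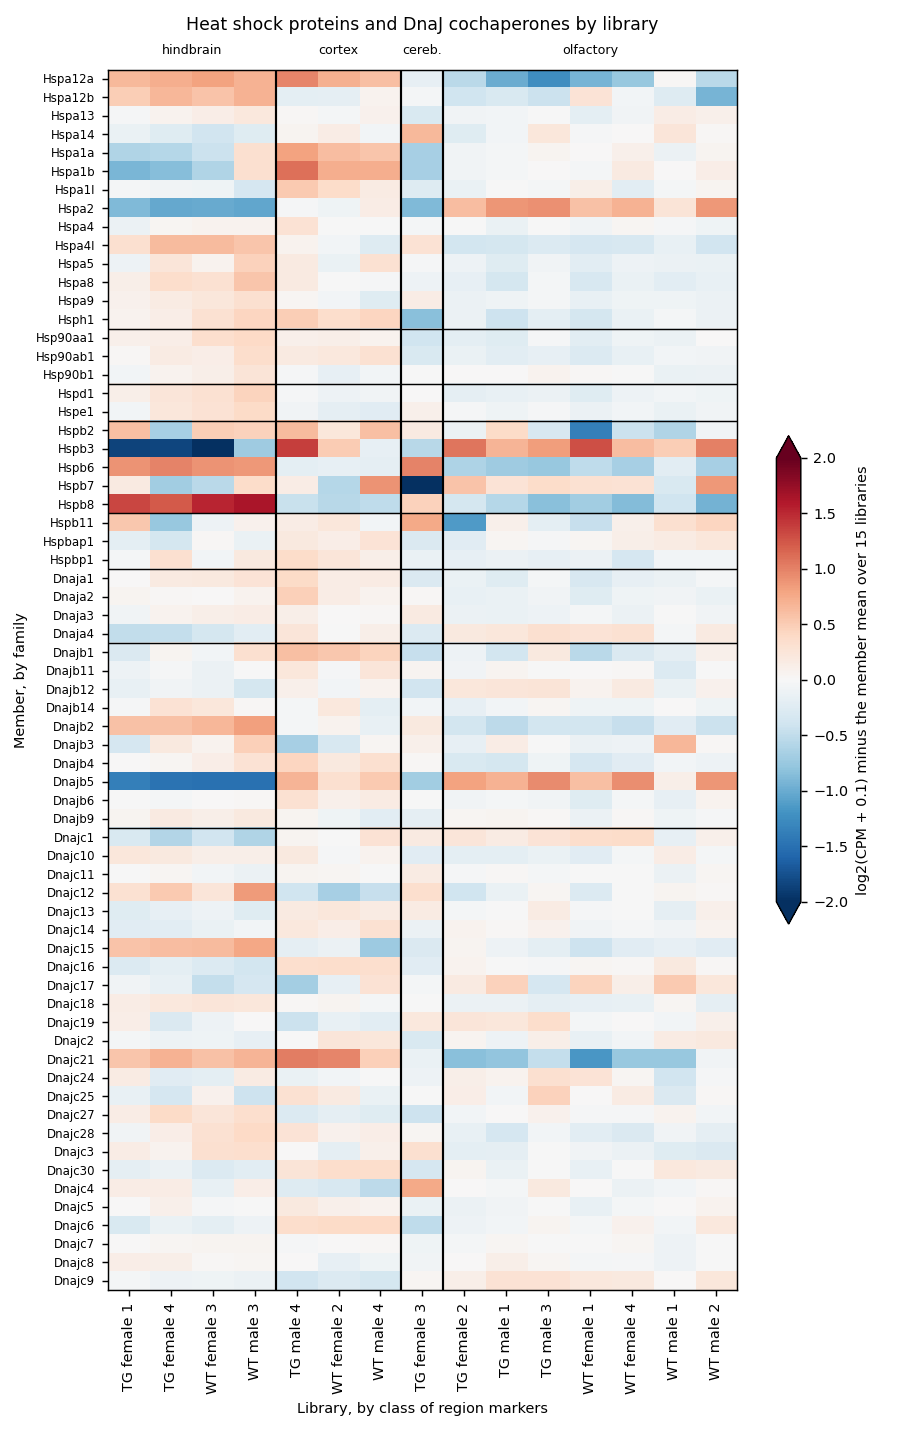
Each row is a member, grouped by family, and each column a library, grouped by class with TG before WT; colour shows log2(CPM + 0.1) minus the member's mean over 15 libraries. Hspb8, Hspb6, Dnajb2 and Hspa4l are high, and Dnajb5, Hspa2 and Hspb3 low, across the 4 hindbrain-marker columns.

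Hindbrain-marker libraries stood apart from olfactory-marker libraries in 14 of 66 members. Of these, 9 were higher, 13.6% of members, where 15.1% of all tested genes were separated upward, and 5 were lower, 7.58% of members, where 15.6% of all genes were separated downward. Among the 9, the small heat shock proteins Hspb8 and Hspb6 had the largest differences. Hspb8, which holds unfolded clients together with the HSP70 partner Bag3, was at 50.2 and 46.8 CPM in TG female 1 and 4 and at 57.6 and 61.7 CPM in WT female 3 and WT male 3. Its level ran from 10.3 to 15.5 CPM with a median of 12.3 CPM in the 7 olfactory-marker libraries, a log2 difference of 2.10. No hindbrain-marker library came near any olfactory-marker one, in either genotype. The 2 classes did not overlap in Bag3 either, which belongs to a list of HSP70 and HSP90 partners, with 36.0 and 42.0 CPM in TG and 44.6 and 53.5 CPM in WT hindbrain-marker libraries, against 10.6 to 14.6 CPM in olfactory-marker ones.

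Hspb6, known from smooth and cardiac muscle, averaged 13.2 ± 0.542 CPM (SD, n = 4) in hindbrain-marker libraries, all at 12.8 CPM or above, and ran from 4.06 to 6.02 CPM in olfactory-marker ones (median 4.38 CPM, log2 difference 1.51). Dnajb2, a neuronal cochaperone that binds ubiquitin chains, had 187.7 and 188.5 CPM in these TG libraries and 198.8 and 221.9 CPM in these WT ones, where olfactory-marker libraries had 87.3 to 107.2 CPM. Its log2 difference was 1.06. Hspa12a, a distant relative of HSP70, averaged 390.5 ± 17.2 CPM (SD, n = 4) in hindbrain-marker libraries and 149.9 ± 46.0 CPM (SD, n = 7) in olfactory-marker ones, with a log2 difference of 1.43. Dnajc21, a cochaperone of ribosome assembly, averaged 21.7 ± 1.04 CPM (SD, n = 4) in the hindbrain-marker class and 8.82 ± 2.28 CPM (SD, n = 7) in the olfactory-marker class, with a log2 difference of 1.33. The spread of both genes was wider among olfactory-marker libraries, where WT male 1 had the most Hspa12a (240.2 CPM) and WT male 2 the most Dnajc21 (13.3 CPM). The remaining members separated upward were Hspa12b (log2 difference 0.91), known from endothelium, the HSP110 gene Hspa4l (0.85), the mitochondrial import protein Dnajc15 (0.83) and Dnajc12 (0.59), a cochaperone of the aromatic amino acid hydroxylases.

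Downward, Dnajb5 had 55.8 and 52.1 CPM in TG female 1 and 4 and 51.1 and 51.2 CPM in WT female 3 and WT male 3. In olfactory-marker libraries Dnajb5 ran from 156.7 to 278.5 CPM with a median of 253.5 CPM, and the log2 difference was -2.17. The 4 hindbrain-marker values of Dnajb5 lay within a few CPM of each other, and WT male 1, with its hypothalamus markers, was the lowest olfactory-marker library. Hspa2, an HSP70 best known from testis, averaged 32.3 ± 1.69 CPM (SD, n = 4) in hindbrain-marker libraries against 104.4 ± 16.0 CPM (SD, n = 7) in olfactory-marker ones, a log2 difference of -1.68. Hspb3, a small heat shock protein of muscle, had 7 and 8 counts in TG female 1 and 4 and 7 and 27 counts in WT female 3 and WT male 3. Summed over libraries, its ratio of hindbrain-marker over olfactory-marker CPM was 0.147, with a 95% exact binomial interval of 0.107 to 0.197 that covers counting error only. The ER membrane cochaperone Dnajc1 and the cytosolic Dnaja4 were lower by smaller steps, with log2 differences of -0.66 and -0.59.

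Several lists of cell type markers moved with this comparison, and others overlapped between the classes. Summed over each list, oligodendrocyte genes had 17919.2 to 23241.6 CPM in hindbrain-marker libraries against 1896.4 to 3557.1 CPM in olfactory-marker ones, and astrocyte genes 7575.4 to 9441.1 CPM against 3931.2 to 5062.8 CPM. The 10 smooth muscle and pericyte markers summed to 67.7 to 97.0 CPM in the hindbrain-marker class and 49.6 to 69.2 CPM in the olfactory-marker class. Genes of a muscle list summed to 48.7 to 67.4 CPM in hindbrain-marker libraries and 23.4 to 25.5 CPM in olfactory-marker ones. That list includes Pvalb, so its sum may not stand for muscle alone. Markers of ciliated ependyma summed to 34.9 to 45.2 CPM in hindbrain-marker libraries and 15.7 to 21.7 CPM in olfactory-marker ones. Of these lists, smooth muscle alone overlapped between the classes. Microglia markers overlapped too, at 348.7 to 418.1 CPM in hindbrain-marker and 308.3 to 393.1 CPM in olfactory-marker libraries. In the same order, endothelium markers had 207.1 to 230.3 and 151.3 to 225.4 CPM, and overlapped. Choroid plexus markers, at 37.7 to 50.3 and 6.54 to 67.5 CPM, overlapped as well. The 10 neuron markers summed to 9709.0 to 10718.5 CPM in hindbrain-marker libraries and to 7186.0 to 7843.5 CPM in olfactory-marker ones. Their part in the member differences was not tested. In bulk tissue, more cells of a type and more RNA per cell cannot be told apart.

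Cortex-marker libraries differed from olfactory-marker ones in 7 members, 6 higher (9.09% of members, against 9.96% of all genes) and 1 lower (1.52%, against 10.3%). Of the 6 higher members, 4 are inducible by stress. Dnajb1, the main inducible DnaJ partner of HSP70, had 122.6 CPM in TG male 4 and 117.0 and 110.1 CPM in WT female 2 and WT male 4, against 55.6 to 92.6 CPM in olfactory-marker libraries (log2 difference 0.70). Hsph1, the inducible HSP110, had 261.3 CPM in TG male 4 and 236.5 and 249.8 CPM in the WT libraries, against 138.8 to 181.7 CPM (log2 difference 0.62). Hspa1a and Hspa1b differed by 0.66 and 0.83 on the log2 scale and are taken up with their sequences. The list of 11 stress-inducible members held Hspa1a, Hspa1b, Hsph1, Hsp90aa1, Hspa8, Hspd1, Hspe1, Dnaja1, Dnajb1, Dnajb4 and Hspa4l, some of which, such as Hspa8, are also made without stress. Of these 11, 4 were separated upward and none downward, with a median log2 difference of 0.38, while the other 7 did not meet the rule. Dnajc21 and Hspa12a were again higher, by 1.52 and 1.48, and Hspa2 was again lower, by a log2 difference of -0.68. Neuron markers summed to 9694.2 to 12346.7 CPM in cortex-marker libraries and cortical excitatory neuron markers to 2986.7 to 3230.4 CPM, against 7186.0 to 7843.5 CPM and 1037.0 to 1687.1 CPM in olfactory-marker ones. Astrocyte markers did not overlap either, at 5978.8 to 6445.1 CPM in cortex-marker libraries and 3931.2 to 5062.8 CPM in olfactory-marker ones. The muscle list with Pvalb had 33.0 to 55.7 CPM in cortex-marker and 23.4 to 25.5 CPM in olfactory-marker libraries, also without overlap. The part of these lists was not tested.

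Set against cortex-marker libraries, hindbrain-marker libraries were separated upward in 7 members, 10.6% of members where 18.3% of all genes were, and downward in 6, 9.09% of members where 15.5% of all genes were. The higher members were Hspb8, Hspb6, Dnajc12, Dnajc15, Dnajb2, Hspa12b and Hspa4l, with log2 differences between 0.61 and 1.94. The lower ones were Hspb3, Dnajb5, Hspa1b, Hspa2, Hspa1a and Dnajc16, with differences between -2.49 and -0.61. Hspa12a and Dnajc21 were not separated between these 2 classes, at -0.05 and -0.19. Hspa12a and Dnajc21 thus stood above the olfactory-marker libraries in both classes, whereas Hspb8 was at 13.5 to 14.6 CPM in cortex-marker libraries, within its olfactory-marker range.

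The single cerebellum-marker library, TG female 3, has no replicate and no WT counterpart. It lay outside the olfactory-marker range by the same rule in 7 members upward (10.6%, against 16.8% of all genes) and 7 downward (10.6%, against 18.2%). Hspb6 was higher by a log2 difference of 1.59, and Hspb8 at 27.3 CPM lay between the hindbrain-marker and olfactory-marker ranges. Hspb11, Dnajc4, Hspa14, Hspa4l and Dnajb2 were also higher, by log2 differences of 0.59 to 0.95. Hspb11 had few counts. WT male 2, an olfactory-marker library, had 14 counts of it, 0.645 CPM with a 95% counting interval of 0.353 to 1.08 CPM. That interval overlapped the 1 for Hspb11 in TG female 3, 0.457 to 1.40 CPM around 0.836 CPM from 14 counts. Dnajb5 at 89.2 CPM, Hspa2 at 34.8 CPM, Hspa1a at 19.8 CPM, Hspa1b at 16.7 CPM and Hsph1 at 104.6 CPM were below every olfactory-marker library, as was Hspb3 at 1.25 CPM. Hspb7, a small heat shock protein of heart, had 1 count in this library, a ratio to the olfactory-marker libraries of 0.0708 with an exact 95% counting interval of 0.00178 to 0.403. This library also held more choroid plexus RNA, 873.8 CPM over 7 markers, where the highest of the others had 67.5 CPM. The muscle list summed to 202.3 CPM here, where the highest of the others had 67.4 CPM. Because it includes Pvalb, that sum may not stand for muscle alone. The part of both lists in the higher Hspb6 was not tested.

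**Figure D3:**
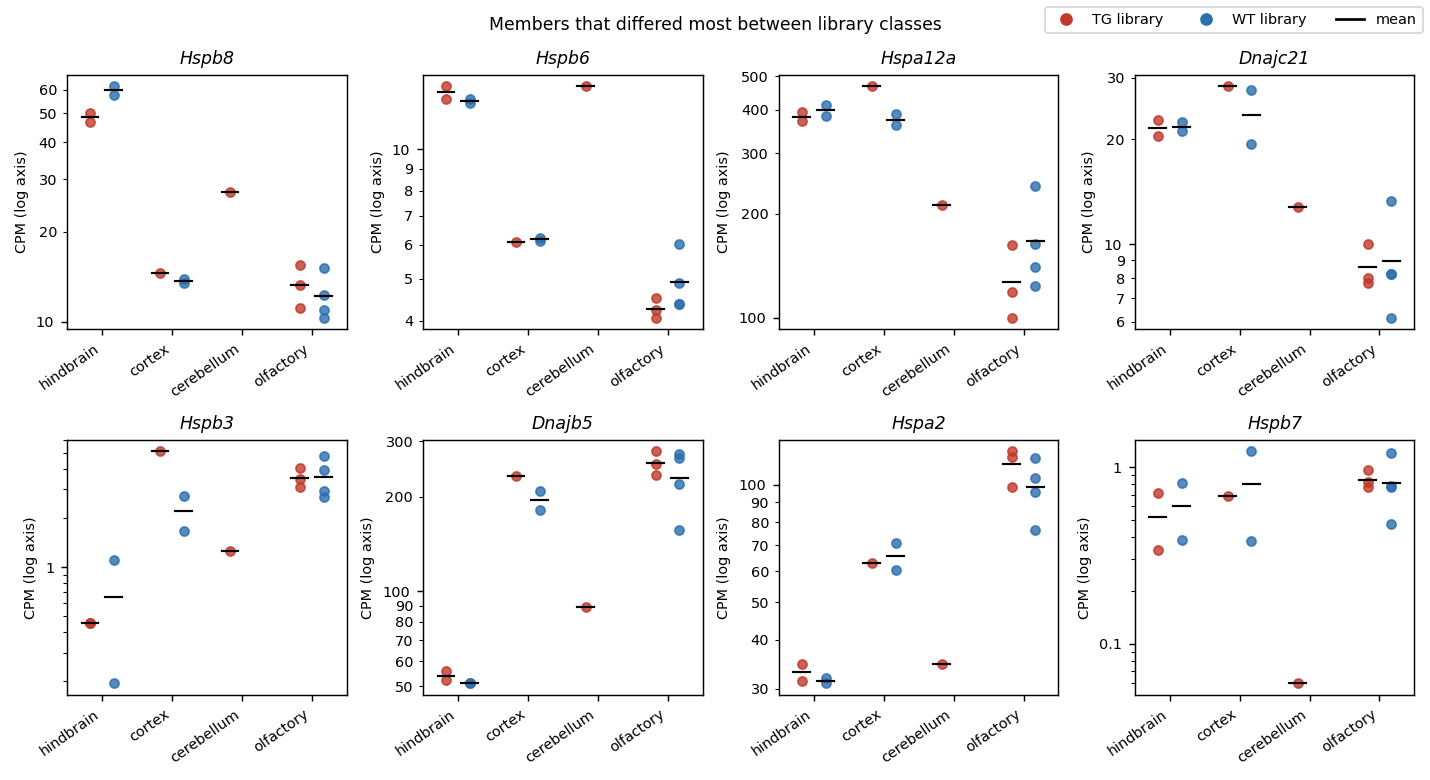
CPM on a log axis for 8 members that differed between library classes, by class, with TG libraries in red left of WT libraries in blue and the mean as a bar. Hspb8, at 46.8 to 61.7 CPM in hindbrain-marker and 10.3 to 15.5 CPM in olfactory-marker libraries, and Dnajb5, which runs the other way, part the classes in both genotypes.

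Separation was also counted by organelle, where the lists are short and most genes of the whole table were not separated either. None of the 3 HSP90 genes was separated in any of the 4 class comparisons, and neither was the HSP60 gene Hspd1 or its partner Hspe1. Of 10 mitochondrial members, Dnajc15 was separated upward in hindbrain-marker libraries against both other classes with replicates, and Dnajc4 in the cerebellum-marker library. Of 12 members of the endoplasmic reticulum, 1 was separated between hindbrain-marker and olfactory-marker libraries (Dnajc1) and 1 between hindbrain-marker and cortex-marker ones (Dnajc16). Hspa5 averaged 401.3 ± 66.8 CPM (SD, n = 4) in hindbrain-marker, 385.8 ± 58.9 CPM (SD, n = 3) in cortex-marker and 321.3 ± 13.5 CPM (SD, n = 7) in olfactory-marker libraries. Its neighbours in function, Hsp90b1, Dnajb9 and Dnajc3, had log2 differences between -0.07 and 0.37 in the 3 comparisons of these classes. Among 3 members of synapse and clathrin turnover none was separated. Dnajc5 was at 472.7 ± 20.3 CPM (SD, n = 4) in the hindbrain-marker class, 510.1 ± 23.3 CPM (SD, n = 3) in the cortex-marker class and 452.3 ± 23.8 CPM (SD, n = 7) in the olfactory-marker class. Dnajc6 had its highest level, 391.8 ± 6.63 CPM (SD, n = 3), in cortex-marker libraries.

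Promoter windows from RefSeq on GRCm38.p6, running from 250 bases before the gene start to 50 after it, were matched for 54 of the 66 members. Each was searched for GAANNTTC and for TTCNNGAA, where N is any base; either motif reads the same on both strands, and the 2 can overlap in a row of alternating units. GAANNTTC was found in 12 members, 22.2% of those matched, against 9.04% of 27025 genes with a window. TTCNNGAA was found in 6 members, 11.1%, against 9.6% of genes. A run of 3 alternating units was found in 4 members, Dnajb6, Hspd1, Hspe1 and Hsph1, which is 7.41% of those matched against 0.662% of genes. At least 1 of GAANNTTC and TTCNNGAA was found in 14 members, 25.9%, among them 7 of 9 stress-inducible members with a window, against 17% of genes. A match describes letters and not a bound site.

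Hspa1a and Hspa1b are shown because the genes are near-identical copies, so that reads of one may be counted for the other. Their windows lie on the minus strand of chromosome 17, at chr17:34972107-34972406 for Hspa1a and chr17:34959189-34959488 for Hspa1b, and each holds the motif from base 147. Hsph1 (minus strand, chr5:149636287-149636586) and Hspe1 (plus strand, chr1:55087898-55088197) are shown for their runs of 3 alternating units. The window of Hspe1 reaches into the gene body of Hspd1, which lies head to head with Hspe1 and overlaps that gene by 96 bases. Hspb8 (minus strand, chr5:116422815-116423114) is shown as the member with the largest upward difference in hindbrain-marker libraries. Capitals mark the motifs, and each window is read 5′ to 3′ along its gene.
Hspa1a: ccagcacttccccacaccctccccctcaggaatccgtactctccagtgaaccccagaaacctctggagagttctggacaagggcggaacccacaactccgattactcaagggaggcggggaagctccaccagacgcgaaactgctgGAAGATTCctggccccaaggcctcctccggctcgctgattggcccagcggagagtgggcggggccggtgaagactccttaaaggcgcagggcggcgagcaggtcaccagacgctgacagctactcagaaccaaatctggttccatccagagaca
Hspa1b: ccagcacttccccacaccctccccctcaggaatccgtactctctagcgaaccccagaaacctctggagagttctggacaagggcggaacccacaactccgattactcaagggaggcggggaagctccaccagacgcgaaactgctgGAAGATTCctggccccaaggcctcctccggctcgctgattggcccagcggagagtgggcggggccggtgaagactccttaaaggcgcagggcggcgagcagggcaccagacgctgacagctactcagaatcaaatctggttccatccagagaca
Hsph1: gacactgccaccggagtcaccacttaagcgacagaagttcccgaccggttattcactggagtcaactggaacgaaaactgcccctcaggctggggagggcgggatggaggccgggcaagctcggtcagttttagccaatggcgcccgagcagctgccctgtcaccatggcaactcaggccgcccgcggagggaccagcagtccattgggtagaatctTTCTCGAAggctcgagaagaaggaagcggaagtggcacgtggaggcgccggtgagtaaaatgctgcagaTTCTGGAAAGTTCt
Hspe1: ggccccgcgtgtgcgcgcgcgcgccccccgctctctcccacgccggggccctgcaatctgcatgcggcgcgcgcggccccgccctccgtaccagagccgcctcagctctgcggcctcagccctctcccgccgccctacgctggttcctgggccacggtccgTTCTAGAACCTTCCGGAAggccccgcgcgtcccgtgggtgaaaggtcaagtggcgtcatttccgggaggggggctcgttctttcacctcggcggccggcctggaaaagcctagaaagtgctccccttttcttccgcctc
Hspb8: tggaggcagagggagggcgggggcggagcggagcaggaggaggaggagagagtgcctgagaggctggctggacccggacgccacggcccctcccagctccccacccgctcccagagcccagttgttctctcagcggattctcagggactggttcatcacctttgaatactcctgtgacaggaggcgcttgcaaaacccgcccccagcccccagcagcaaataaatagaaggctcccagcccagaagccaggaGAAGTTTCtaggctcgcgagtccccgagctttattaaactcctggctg
Counted from the 5′ end of the window, Hspa1a and Hspa1b differ over 300 bases by C44T, T47C, T249G and C276T, with the base of Hspa1a first, and are 98.7% identical.

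TG and WT were then compared with edgeR's quasi-likelihood test over all 17151 genes with Benjamini-Hochberg adjustment at 0.05. With library class and sex as covariates, 0.496% of all genes were called and 0 of 66 members. At an unadjusted p under 0.05, this fit held 3 members, 4.55% of them, where 8.40% of all genes passed that mark. The log2 fold changes of members lay between -0.27 and 0.19 with a median of -0.01, and 61 of 66 had a 95% interval inside a 1.5-fold change in either direction. DESeq2 also called 0 members. Over all libraries without the class term, 0.111% of genes and 0 members were called by edgeR, and 0 members by DESeq2. There 1 member, Hspbap1, had an unadjusted edgeR p under 0.05, 1.52% of members where 1.83% of all genes passed. The 3 members with the smallest p in the fit with class were Dnajc8, a splicing-associated DnaJ protein (log2 fold change 0.10 ± 0.04 SE, edgeR adjusted p = 0.485), Dnajb12, which acts at the ER membrane (0.16 ± 0.06 SE, edgeR adjusted p = 0.497), and Hspbap1 (-0.17 ± 0.07 SE, edgeR adjusted p = 0.540).

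Members of interest for α-synuclein were near 0 in this fit. The log2 fold change was 0.02 with a 95% interval of -0.08 to 0.12 for Dnajc5, 0.04 with an interval of -0.07 to 0.14 for Dnajb6, a suppressor of protein aggregation, and -0.07 with an interval of -0.20 to 0.05 for Dnajb2. For Hspa8 it was -0.01 with an interval of -0.16 to 0.14, and for Dnajb1 0.02 with an interval of -0.21 to 0.24. These intervals do not exclude small changes. Hspa1a and Hspa1b had wider intervals, -0.38 to 0.09 and -0.51 to 0.08. The 5 members whose interval reached beyond 1.5-fold were Dnajb3, Hspb2, Hspb3, Hspb7 and Hspb11.

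Within olfactory-marker libraries, 3 TG against 4 WT, 0.245% of all genes and 0 members were called by edgeR. An unadjusted p under 0.05 was found for 1 member, 1.52% of them where 7.75% of all genes passed. This was Dnajb12, at 20.6, 20.7 and 21.1 CPM in TG female 2, TG male 1 and TG male 3. Its level was 18.4, 20.0, 16.0 and 18.7 CPM in WT female 1, WT female 4, WT male 1 and WT male 2, and the log2 fold change was 0.20 ± 0.09 SE (edgeR adjusted p = 0.630). The groups of Dnajb12 did not overlap. In all, TG lay above WT without overlap in 4 members (Dnajb12, Dnajb9, Dnajc19 and Dnajc8), 6.06% of members where 3.83% of all genes did so, and below it in 1 (Hspbap1), 1.52% where 2.95% did so. Hspa1a ran from 29.9 to 32.7 CPM in TG and from 29.0 to 33.9 CPM in WT olfactory-marker libraries, so the WT range enclosed the TG range. Hspa1b ran from 25.3 to 26.9 CPM in TG and from 26.0 to 30.1 CPM in WT ones. The 11 stress-inducible members had a median log2 fold change of -0.04, with 4 above 0 and 7 below.

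Within hindbrain-marker libraries, 2 TG against 2 WT, 0.0700% of all genes and 0 members were called by edgeR, and 0 members by DESeq2. At an unadjusted p under 0.05 the edgeR fit held 5 members, 7.58% of them where 5.81% of all genes passed, and each had a fold change below 0. Hspa1b had 14.1 and 14.7 CPM in TG female 1 and 4, against 17.5 and 33.2 CPM in WT female 3 and WT male 3. Hspa1a had 20.7 and 21.3 CPM in the same TG libraries, against 23.5 and 39.3 CPM in the same WT ones. TG and WT did not overlap in either gene, but WT female 3 lay close to TG and WT male 3 far above. The log2 fold changes were -0.69 ± 0.22 SE for Hspa1b (edgeR adjusted p = 0.657) and -0.50 ± 0.19 SE for Hspa1a (edgeR adjusted p = 0.762). Summed, Hspa1a and Hspa1b had 34.7 and 36.0 CPM in TG female 1 and 4, against 41.0 and 72.5 CPM in WT female 3 and WT male 3. The sum does not depend on how counted reads were shared between the 2 copies. Reads left out for matching both copies would be missing from it, and how such reads were handled is not given.

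Other members with lower TG values did not pass the test either. Hsp90aa1 had 1317.1 and 1354.2 CPM in the TG libraries of this class and 1560.1 and 1614.8 CPM in the WT ones (log2 fold change -0.22 ± 0.10 SE, edgeR adjusted p = 0.845). Hsph1 had 195.4 and 202.9 CPM in TG and 229.8 and 251.6 CPM in WT (-0.24 ± 0.12 SE, edgeR adjusted p = 0.901). Hspe1, the HSP10 cofactor of HSP60, had 18.3 and 22.2 CPM in TG and 23.1 and 24.7 CPM in WT (-0.24 ± 0.11 SE, edgeR adjusted p = 0.845). Dnajc28 had 19.8 and 22.8 CPM in TG and 25.7 and 27.5 CPM in WT (-0.29 ± 0.12 SE, edgeR adjusted p = 0.812). In these 4 genes both TG libraries lay below both WT ones. The 11 stress-inducible members had fitted fold changes between -0.69 and -0.10 with a median of -0.16, where the median over all genes was 0.00. Among all members, TG lay below WT without overlap in 24, 36.4% of them, where 20.0% of all genes did so, and above it in 10, 15.2%, where 18.7% of all genes did so.

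Among hindbrain-marker libraries, 1 WT library was often the highest. By the rule of no overlap, WT female 3 also lay above both TG libraries in each of the 24 members. WT male 3 was the highest of the 4 hindbrain-marker libraries in 10 of the 11 stress-inducible members and in 53.0% of all members, where it was highest in 25.9% of all genes. It is the only male library of the class. Over all libraries with genotype and class as covariates, 50 of 66 members had a fitted difference below 0 for female minus male. Their median was -0.06, where the median over all genes was 0.00. Of the 11 stress-inducible members, 11 were below 0, with a median of -0.11. WT male 3 is in that fit, and the part of sex in the hindbrain-marker values was not tested. None of these sex differences passed the test, in which edgeR called 0.0700% of all genes and 0 members. At an unadjusted p under 0.05 it held 6 members, among them Dnajc12, Dnajb4 and Hspa13. These were 9.09% of members, where 5.52% of all genes passed that mark. Without WT male 3 the hindbrain fold changes were -0.28 for Hspa1b and -0.16 for Hspa1a. Not every member moved as much when any 1 library was left out. The hindbrain log2 fold change stayed between -0.24 and -0.19 for Hsp90aa1 and between -0.3 and -0.2 for Hsph1. For Dnajb1 it ran from -0.32 to 0.03. Without WT female 3, WT male 3 was the only WT library of the class, and Hspa1b was then called at -1.19 (edgeR adjusted p = 0.0296), with the lone library taken to vary like those of the other classes. Oligodendrocyte markers summed to 20425.0 and 17919.2 CPM in TG female 1 and 4 and to 23241.6 and 20609.4 CPM in WT female 3 and WT male 3. Neuron markers summed to 9709.0 and 10156.3 CPM in the same TG libraries and to 10546.4 and 10718.5 CPM in the same WT ones. Ependyma markers summed to 42.1 and 34.9 CPM in these TG libraries and to 45.2 and 43.9 CPM in these WT ones. Both TG libraries were thus lower in the oligodendrocyte, neuron and ependyma lists. Sums of the astrocyte, microglia, smooth muscle, endothelium, choroid plexus and muscle lists overlapped between TG and WT. The part of these lists in the member values was not tested.

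**Figure D4:**
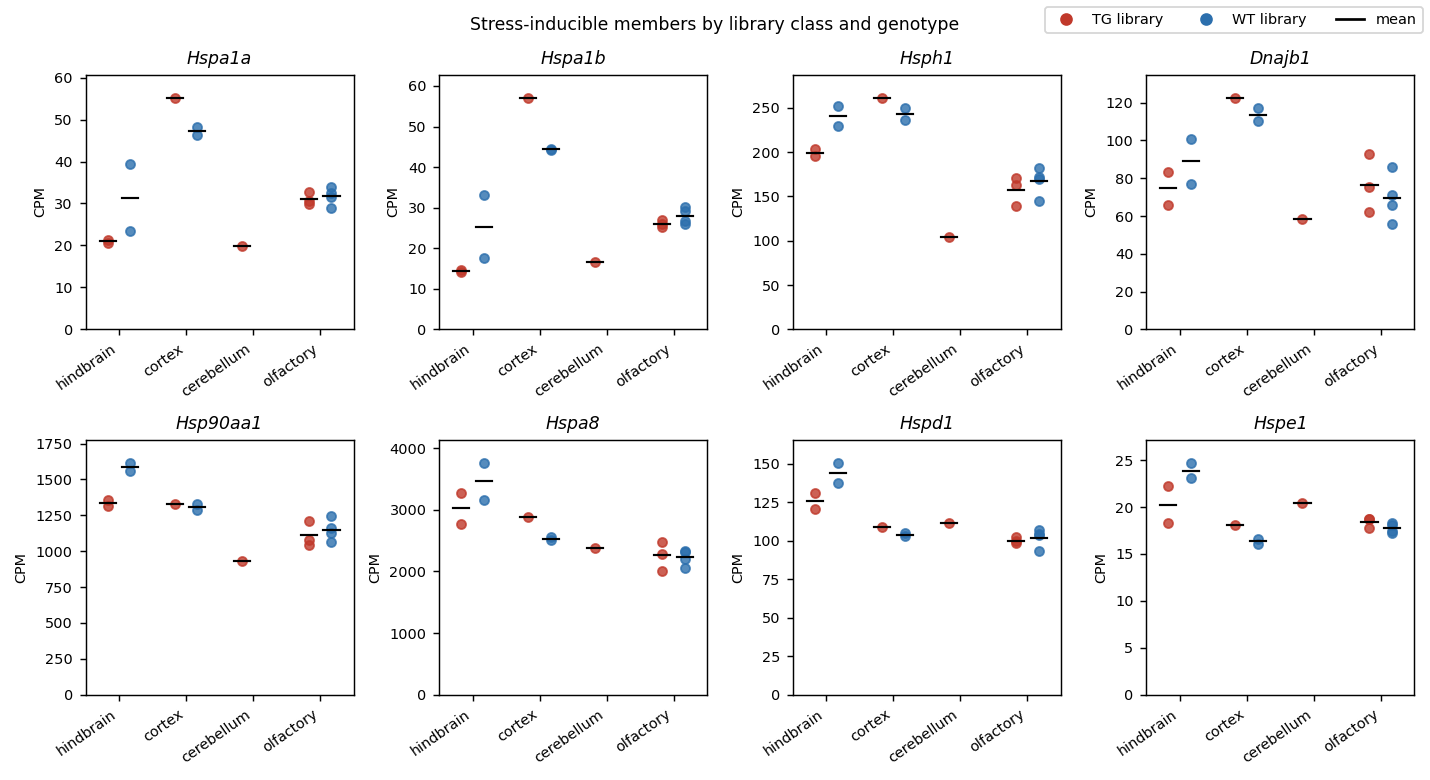
CPM from 0 for 8 stress-inducible members by library class, with TG libraries in red left of WT libraries in blue and the mean as a bar. In the hindbrain-marker class WT male 3 stands at 39.3 CPM for Hspa1a while the other 3 libraries lie between 20.7 and 23.5 CPM; in olfactory-marker libraries TG and WT overlap.

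Cortex-marker libraries gave 1 TG library against 2 WT ones, so the TG value has no replicate and its error is taken from the other classes. Here 0.274% of all genes and 0 members were called by edgeR, while DESeq2 called 255 of 17151 genes and 1 of 66 members, a like share. The member was Dnaja2, a cytosolic DnaJ partner of HSP70. Leaving out 1 library moved the 47 genes called by edgeR to as few as 1 (without WT male 4) and as many as 125 (without WT male 1). Dnaja2 had 184.0 CPM in TG male 4, against 146.5 and 138.5 CPM in WT female 2 and WT male 4. The log2 fold change was 0.35 ± 0.09 SE (edgeR adjusted p = 0.195, DESeq2 adjusted p = 0.0426). The HSP110 gene Hspa4 had 233.0 CPM in TG male 4 and 188.9 and 189.5 CPM in the WT libraries (0.32 ± 0.10 SE, edgeR adjusted p = 0.259), and Dnajc17, low throughout, had 1.66 CPM in TG male 4 and 2.41 and 3.33 CPM in the WT libraries. Of the 11 stress-inducible members, 10 had a fold change above 0 in this class, with a median of 0.15. Neuron markers were also highest in TG male 4, at 12346.7 CPM against 10452.7 and 9694.2 CPM in WT female 2 and WT male 4. Oligodendrocyte markers were lowest there, at 2631.2 CPM against 5377.2 and 4325.4 CPM in the same WT libraries. The part of these lists was not tested.

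Whether the genotype difference itself differed between olfactory-marker and hindbrain-marker libraries was tested as an interaction. In this test edgeR called 0.0117% of all genes and 0 members, and DESeq2 called 0 members. The unadjusted edgeR p was under 0.05 for 1 member, Dnajc10, an ER disulfide reductase. This was 1.52% of members, where 5.46% of all genes passed. The lower values in hindbrain-marker TG libraries were therefore not shown to differ from the values in olfactory-marker ones.

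**Figure D5:**
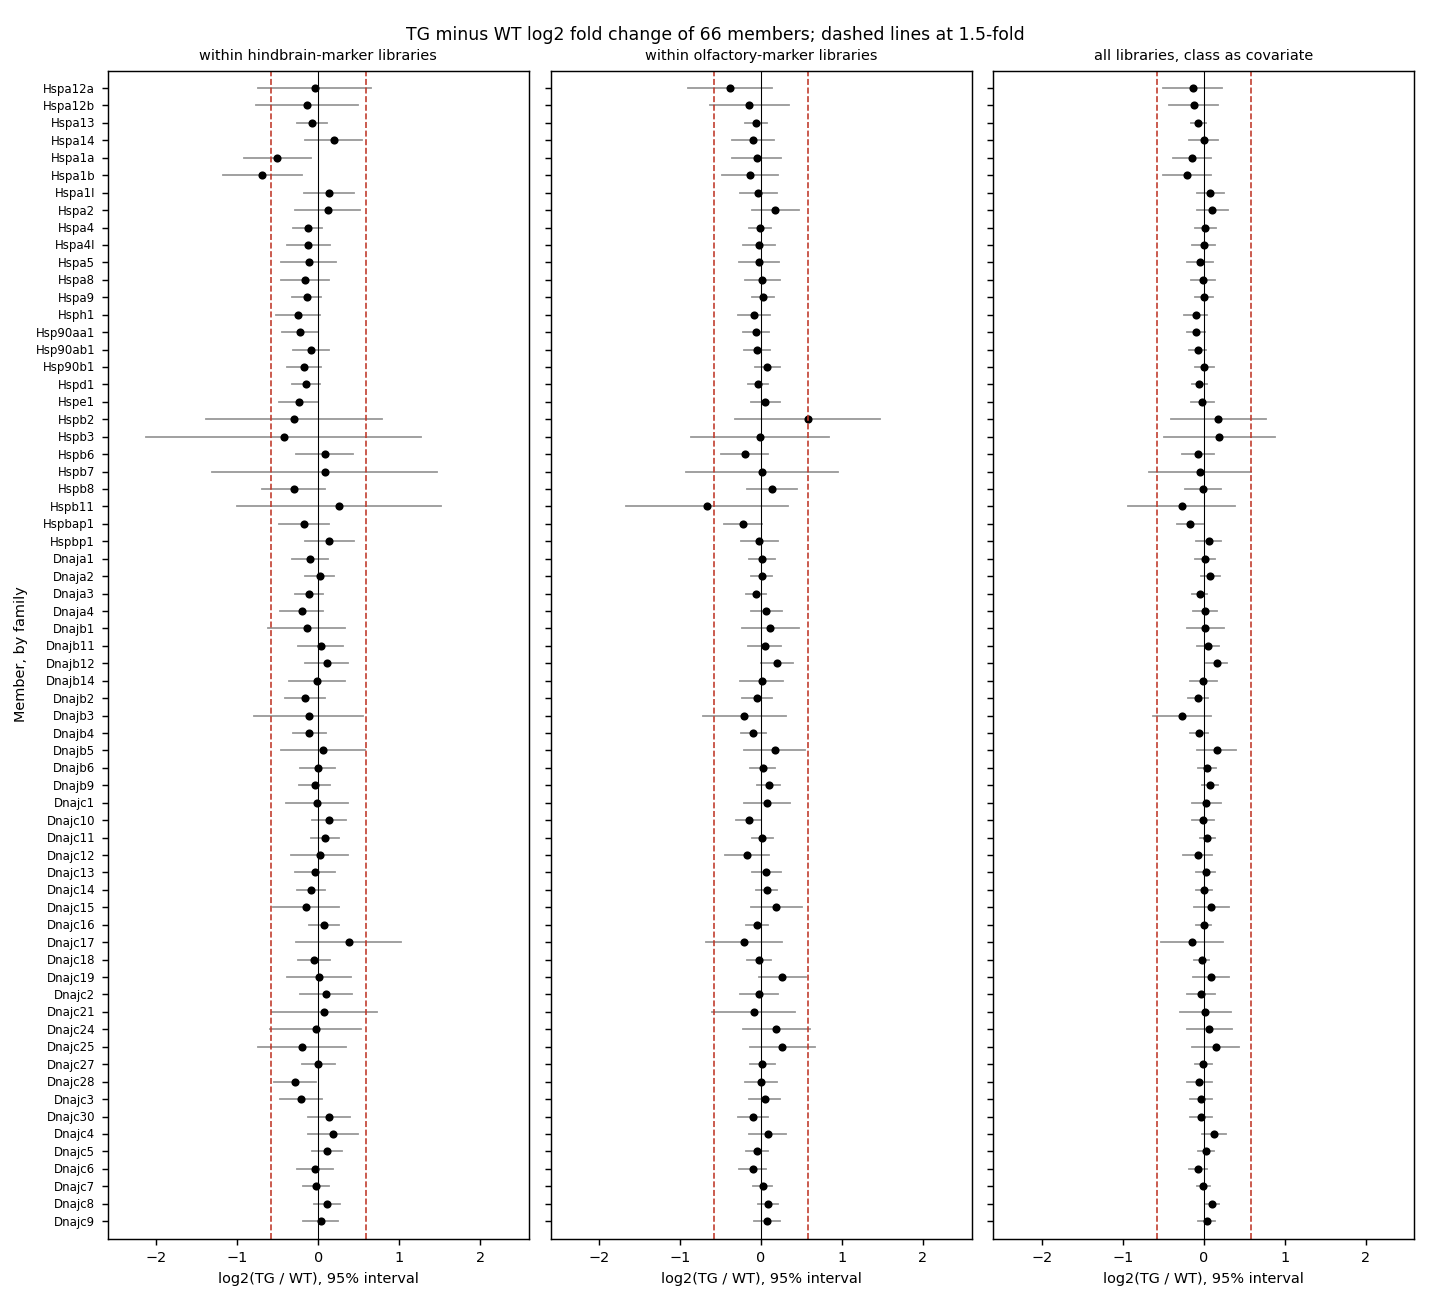
Log2 fold change of TG over WT with its 95% interval for each of 66 members, within hindbrain-marker libraries, within olfactory-marker libraries, and over all libraries with class as a covariate; dashed lines mark 1.5-fold. In the right-hand panel the points lie between -0.27 and 0.19, and Hspa1b and Hspa1a, at -0.69 and -0.50, sit furthest left in the left-hand panel.

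Genes that work with the members were read from 4 lists. With class as a covariate, none of 4 heat shock factors, 30 HSP70 and HSP90 partners or 20 genes of the ER stress response was called by edgeR. Of 14 genes of the TRiC chaperonin and prefoldin, which fold actin and tubulin, 1 was called, lower in TG. This was the prefoldin subunit Vbp1 (log2 fold change -0.24 ± 0.04 SE, edgeR adjusted p = 0.0153). Vbp1 was not called over all libraries without class (-0.13 ± 0.11 SE, edgeR unadjusted p = 0.272). Nor was it within olfactory-marker libraries (-0.22 ± 0.06 SE, edgeR unadjusted p = 0.00350, edgeR adjusted p = 0.309). There Vbp1 ran from 50.5 to 56.7 CPM in TG and from 59.4 to 63.0 CPM in WT. Hindbrain-marker libraries had 59.8 and 57.2 CPM in TG and 67.7 and 74.8 CPM in WT. TG lay below WT without overlap in 2.95% and 20.0% of all genes in these classes. TG male 4 had 45.0 CPM, against 53.0 and 53.4 CPM in cortex-marker WT libraries. The cerebellum-marker library had 77.2 CPM. Hsf1, the regulator of the stress response, was at 0.08 ± 0.06 SE (edgeR adjusted p = 0.755) and Bag3 at -0.10 ± 0.10 SE (edgeR adjusted p = 0.832).

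The members described most closely are placed here by their gene bodies in GRCm38.p6. Those high in hindbrain-marker or cortex-marker libraries are Hspb8 at chr5:116408491-116422864 on the minus strand, Hspb6 at chr7:30552535-30555443 on the plus strand, Hspa12a at chr19:58795750-58943672 on the minus strand, Dnajc21 at chr15:10446763-10470568 on the minus strand. Also named were Dnajb2 at chr1:75236395-75245692 on the plus strand, Dnajb5 at chr4:42949867-42959425 on the plus strand, Hspa2 at chr12:76403812-76406938 on the plus strand and Dnaja2 at chr8:85537633-85555361 on the minus strand. Of the 66 members, 14 overlap another coding gene in the RefSeq annotation, and whether reads were counted by strand is not given in the sources used here. Among members separated between classes, Hspa12a shares 9615 bases with Eno4 and Dnajc1 shares 6757 bases with Mllt10. Dnajc7 shares 9058 bases with Cnp, a myelin gene, and Hspb2 shares 1283 bases with Cryab. Dnajc7 stayed level across classes, at 88.3 ± 1.33 CPM (SD, n = 4) in hindbrain-marker and 85.0 ± 2.79 CPM (SD, n = 7) in olfactory-marker libraries. Hspa9, the mitochondrial HSP70, and Dnajc18 lie on chromosome 18 within 1.98 and 1.22 Mb of Pcdha1, a clustered protocadherin gene, and neither was called between TG and WT.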

How the data were processed

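RNA of 15 libraries was measured as whole-number counts of reads per gene, deposited by the authors. Per the labels, the stranded libraries took 250 ng of RNA, were depleted of ribosomal RNA and were read as pairs of 100 bp. Per the submitters' processing notes, the authors used STAR 2.7.5b, GRCm38 and featureCounts of Subread; strand use and multiple matches are not given in the sources used here. NCBI gene IDs were named through RefSeq on GRCm38.p6 (25275 of 27179 matched). Genes kept by filterByExpr (17151) were tested in R 4.3.3 with edgeR 4.0.16 (TMM, robust quasi-likelihood F test, Benjamini-Hochberg at 0.05) for genotype with sex, and with sex and class, and for class-by-genotype means. CPM uses TMM-scaled sizes; log2 CPM adds a prior count of 1. The fits were also run on simulated counts with the same dispersion for all genes and no outlying library. The outcome is not reported here, and no result rests on it.

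Library classes came from Ward clustering of mean log2 CPM of 6 region lists, divided into 4 classes. The planned 5 lists lacked olfactory markers and gave other classes, so the sixth was added after the data were seen. Members and lists were chosen with earlier results of these data known. Genes are named by a rule: called members, the 3 with the smallest p in each fit, up to 8 separated members per direction and class comparison, and 24 fixed members. Hsp90ab1, Dnajc7, Dnajc27, Dnajc19, Dnajb3, Bag3, Hsf1 and Vbp1 were named after their values were seen. Alternatives were DESeq2 1.42.0, other size factors and filters, a replicate block, fewer libraries and other class rules. Results for some genes are not reported here. Intervals on counts cover counting error only; the limit that 3 counts allow was at most 0.198 CPM.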

Additional observations from a re-analysis of the deposited data

Results flagged for a closer look

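Of 144 groups of 4 to 7 libraries of 1 class examined for the named members, 11 had 1 library far from the others relative to the whole range; chance alone flags about 5% of groups, and the groups share libraries and genes. WT male 1 gave 6 of the flags among olfactory-marker libraries. It was the highest of 7 in Hspb6 (6.02 CPM, the next 4.89 CPM) and in Dnajc18 (154.0 CPM, the next 138.4 CPM) and the lowest in Dnaja4 (68.5 CPM, the next 80.00 CPM). Among the 4 WT olfactory-marker libraries it was also the highest in Dnajc16 (70.5 CPM), Hspa14 (13.1 CPM) and again Dnajc18 (154.0 CPM). TG male 3 was the highest of the 7 in Dnajc4 (12.8 CPM, the next 11.38 CPM), and WT female 1 the lowest of the 4 WT in Dnajc12 (7.19 CPM, the next 8.750 CPM).

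Among hindbrain-marker libraries, TG female 4 was the lowest in Hspb2 (0.454 CPM, the next 1.105 CPM), a gene of few counts. WT male 3 was the highest of this class in Hspa1a (39.3 CPM, the next 23.51 CPM), and WT female 3 was the lowest in Dnajc4 (10.1 CPM, the others 12.24 to 12.43 CPM).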

How the results depend on the processing

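Counts of called members stayed at 0 in 137 of 139 refits. The exceptions were Dnaja2 in cortex-marker libraries with DESeq2 (1 member) and Hspa1b in hindbrain-marker libraries without WT female replicate 3 (1 member), so the range over left-out libraries was 0 to 1 within hindbrain-marker libraries and 0 to 0 in the other genotype fits and for sex. Left-out libraries moved Hspa1b in hindbrain-marker libraries between -1.19 and -0.28 and Hspa1a between -0.93 and -0.16. With a 2-fold rule in place of 1.5-fold, separated members numbered 8, 2, 7 and 6 for hindbrain over olfactory, cortex over olfactory, hindbrain over cortex and cerebellum over olfactory, where the 1.5-fold rule gave 14, 7, 13 and 14; left-out libraries gave 12 to 14, 6 to 9, 12 to 14 and 13 to 15. Classes built without the olfactory list and the fit without sex within classes were added after seeing the data, and they called 0 members; with those classes 29 genes were called in place of 85. DESeq2 called 40, 175, 115, 36, 255 and 34 genes where edgeR called 19, 85, 42, 12, 47 and 2, in the order all libraries, with class, olfactory-, hindbrain- and cortex-marker libraries and interaction. With 1 library left out, edgeR called 14 to 21, 56 to 86, 18 to 69, 4 to 15, 1 to 125 and 0 to 25 genes in that order. Of 21 same-numbered pairs of libraries, 7 correlated above 0.1. WT male 3 and WT female 3, both hindbrain-marker libraries, correlated most, at 0.91. Since class and replicate number are mixed in these pairs, the count cannot show whether replicate numbers pair the libraries. With the replicate block, 0 members and 53 genes were called with class, 2, 1 and 1 within the 3 classes and 0 for the interaction. The cause of these shifts was not tested. Low counts limit Dnajb3, Hspb2, Hspb3, Hspb7 and Hspb11, whose intervals with class reached beyond 1.5-fold.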
